A study of Mus musculus with 18 samples.

Results

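A group of 10 transcripts that are widely read as a record of glucocorticoid exposure and cellular stress were followed in mouse dorsal spinal cord: Fkbp5, Tsc22d3, Per1, Zbtb16, Hif3a, Sgk1, Pdk4, Ddit4, Cdkn1a and Nfkbia. The 10 genes were taken by name from 34579 loci, with the locus of highest mean level used where a name had several. Of the 10, 8 reached a mean of 1 FPKM (mapped fragments per kilobase of exon, corrected for library size) over the 6 groups, and 17851 loci of the whole set did. Fkbp5 and Hif3a lay under that level and are described without entering any count of genes past a limit, unless stated.

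Bulk RNA-seq had been made from the dorsal spinal cord of C57BL/6 mice of 3 months (C57BL/6N in the methods of the study). All 18 mice had received a recombinant adeno-associated virus into the dorsal horn, which carried LacZ as control, the wild-type enzyme (HDAC4 wt), or HDAC4 3SA, a nuclear mutant altered at the phosphorylation sites needed for export from the nucleus. The mice of each vector then received saline or Complete Freund's adjuvant (CFA), an emulsion of killed mycobacteria that causes lasting inflammation, into the hindpaw, and tissue was taken 24 h later. This gave 6 groups of 3 mice. No group lacked a virus or a hindpaw injection, so every value stands on top of surgery, virus and handling, and the promoter that drove the transgenes is not given in the sources used here.

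Glucocorticoids, released by the adrenal cortex under stress, cross the cell membrane and bind the glucocorticoid receptor (Nr3c1), which is held ready by Hsp90 and its co-chaperones. The bound receptor enters the nucleus and attaches to a palindromic DNA element near its target genes, among them inhibitors that end the response, such as Fkbp5, and inhibitors of inflammation, such as Tsc22d3 and Nfkbia. In spinal cord these genes are read out in glia and endothelium as well as in neurons. Several of them also answer other signals, Cdkn1a to p53, Nfkbia to NF-kB and Ddit4 to hypoxia, so that their levels alone do not name the signal.

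Promoter windows with matches to elements of these signals are printed for 4 of the genes, 250 bases before to 50 after an annotated transcription start (RefSeq, GRCm38.p6). The windows matched by symbol were 18 in all, from 9 of the 10 genes. Zbtb16 had no entry. The first window belongs to a start of Sgk1 at chr10:21993640-21993939, plus strand, and capitals mark the full glucocorticoid response element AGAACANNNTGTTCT. Next is the start of Nfkbia at chr12:55492598-55492897, minus strand, with a kappa B site, GGAAATTCCC, in capitals. The third is a start of Per1 at chr11:69098699-69098998, plus strand, with an E-box, CACGTG, the element read by the clock proteins, in capitals. The last is the upstream start of Cdkn1a at chr17:29090729-29091028, plus strand, with both matches to the p53 decamer in capitals.
Sgk1: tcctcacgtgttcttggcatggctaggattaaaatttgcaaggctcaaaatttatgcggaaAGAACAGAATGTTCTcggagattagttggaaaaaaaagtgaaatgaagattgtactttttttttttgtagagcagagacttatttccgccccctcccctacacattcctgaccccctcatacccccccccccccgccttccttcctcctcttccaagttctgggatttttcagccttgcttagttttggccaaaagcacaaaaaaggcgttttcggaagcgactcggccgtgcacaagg
Nfkbia: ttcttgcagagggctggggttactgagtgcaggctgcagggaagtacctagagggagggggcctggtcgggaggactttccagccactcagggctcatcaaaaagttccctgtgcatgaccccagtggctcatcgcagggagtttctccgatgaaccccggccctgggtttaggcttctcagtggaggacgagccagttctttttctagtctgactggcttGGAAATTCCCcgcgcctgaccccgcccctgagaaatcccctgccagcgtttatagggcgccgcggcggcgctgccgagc
Per1: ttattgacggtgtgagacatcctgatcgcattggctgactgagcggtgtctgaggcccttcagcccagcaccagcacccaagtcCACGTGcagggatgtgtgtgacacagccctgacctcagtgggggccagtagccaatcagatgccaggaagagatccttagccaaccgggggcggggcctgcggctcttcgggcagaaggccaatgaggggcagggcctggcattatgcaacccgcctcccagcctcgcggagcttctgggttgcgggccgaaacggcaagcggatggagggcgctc
Cdkn1a: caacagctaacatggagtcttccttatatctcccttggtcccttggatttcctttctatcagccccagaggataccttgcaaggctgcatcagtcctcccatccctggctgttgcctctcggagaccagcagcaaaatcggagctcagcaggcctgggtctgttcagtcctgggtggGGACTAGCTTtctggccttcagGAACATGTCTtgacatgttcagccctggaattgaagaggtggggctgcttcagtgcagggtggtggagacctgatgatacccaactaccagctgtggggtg

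The full element, searched on both strands, was found in 1 of the 18 windows, that of Sgk1, where it began 189 bases before the start. It is held by 0.00913% of all 32851 RefSeq windows of this length. A looser form, GNACANNNTGTNC, which every full element also meets, was found in that window alone and in 0.475% of all. The hexamer AGAACA, of which the full element holds a pair, was in 4 windows, of Sgk1 and Tsc22d3, and in 19% of all. The kappa B site was in 1 member window against 0.0883% of all, 29 bases before the start of Nfkbia. The E-box was in 3, of Sgk1, Per1 and Fkbp5, against 7.15% of all, and in 4 windows was ACGTG, a core of the hypoxia element that lies inside each of these E-boxes and stood alone only in Ddit4 (19.6% of all). The p53 decamer was in 2, of Cdkn1a and Tsc22d3, against 8.36% of all. The TATA box TATAAA was in 3 (13.6% of all) and the cAMP response element TGACGTCA in 0 (1.79% of all). These are matches of letters in short windows, and no binding was measured.

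The tables hold 1 pooled estimate per group and no value per mouse, so no value below carries an error. The authors' own test columns were not used, and no test was made. A locus was called higher or lower where the log2 ratio, formed after adding 0.1 FPKM to both values, passed 0.5 in that direction. The table of each vector had been normalized separately, so levels set side by side across vectors describe the tables, and vector and table cannot be told apart. In bulk tissue, fewer cells of a type and less RNA per cell cannot be told apart either.

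The tissue markers were those of spinal cord, with other sources present. The neuronal gene Snap25 was at 646 to 1227 FPKM and the oligodendrocyte gene Mobp at 834 to 1177 FPKM. Summed over 5 microglial markers the level was 111 and 114 FPKM in the LacZ groups, 363 and 422 FPKM in the HDAC4 wt groups and 301 and 494 FPKM in the HDAC4 3SA groups (saline and CFA). The 6 neutrophil markers summed to 11.0 FPKM in LacZ saline and 112 FPKM in LacZ CFA, but to 41.3 and 28.4 FPKM with HDAC4 wt and 61.6 and 38.3 FPKM with HDAC4 3SA. The 5 skeletal muscle markers summed to 17.5 and 35.9 FPKM, 6.62 and 2.18 FPKM, and 55.2 and 46.3 FPKM in the same order, and the 3 Schwann cell markers to 971 and 1499, 975 and 964, and 1336 and 831 FPKM. No marker was listed at 0 in all 6 groups. The part of these cells in the values of the 10 genes was not tested.

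Across the 10 genes, values after CFA were mostly a little above those after saline. Of 30 ratios, 27 were above 0, and 7 of the 10 genes had a higher CFA value in all 3 vectors. Among the 8 genes kept, 6 were above 0 in all 3 vectors, where 23.2% of all loci kept were. The sizes were small: the 8 genes had a median log2 ratio of 0.22, 0.25 and 0.16 (LacZ, HDAC4 wt, HDAC4 3SA), against 0.01 over all loci kept in each. In LacZ mice 0 of the 8 were called higher (4.86% of loci kept) and 0 lower (3.32%). With HDAC4 wt, 1 was called higher (9.08%), Sgk1, and 0 lower (4.95%). With HDAC4 3SA, 2 were called higher (9.44%), Sgk1 and Cdkn1a, and 0 lower (4.59%). Of the 8, 0 were called higher in all 3 vectors at once, against 0.611% of the loci kept. The mice of each vector were different animals, but all 3 comparisons share the list of genes, whose members are not replicates of one another.

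**Figure D1:**
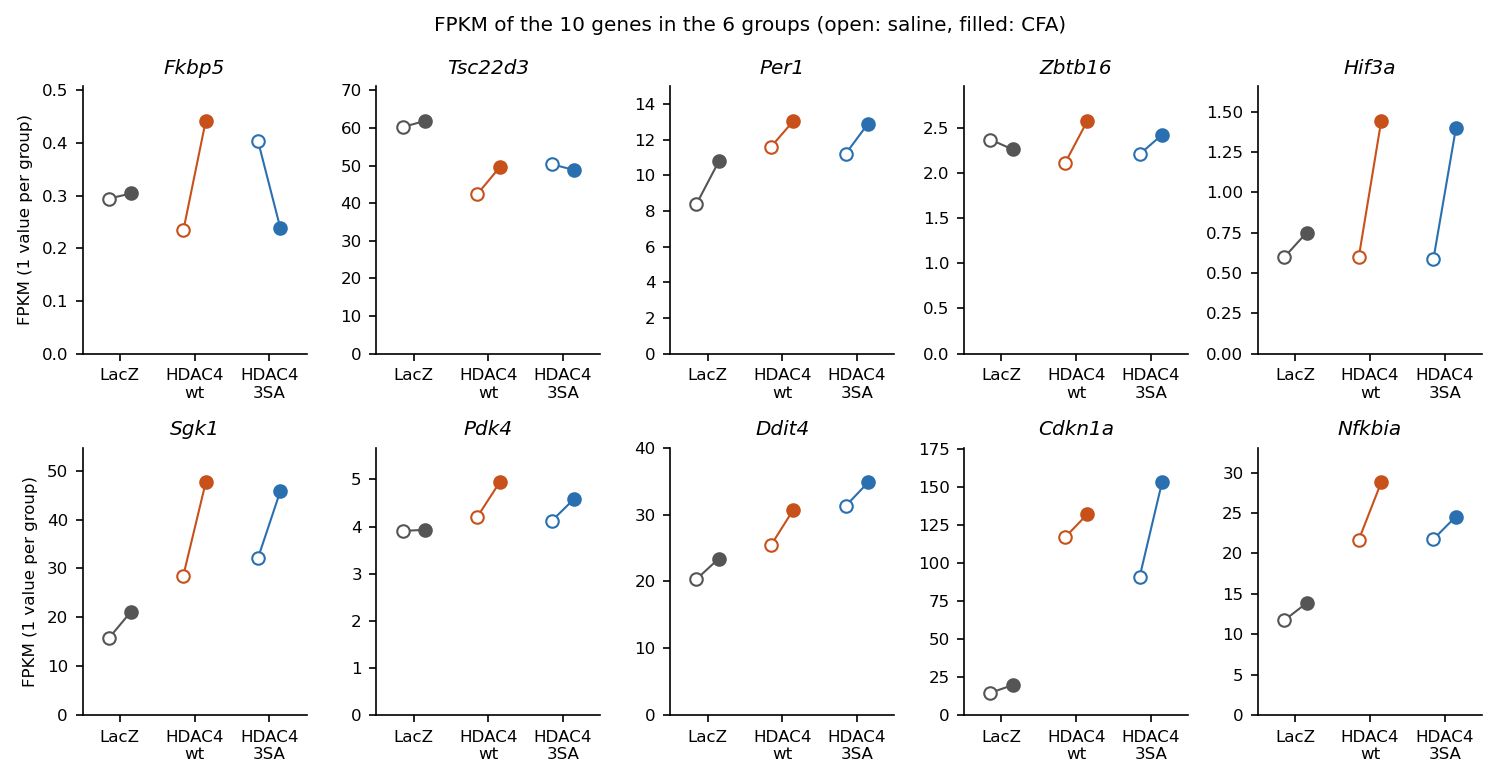
FPKM of the 10 genes (vertical axes from 0, scaled per gene) in mice of the 3 vectors, open circles for saline and filled circles for CFA, each the authors' 1 value over 3 mice. Cdkn1a sits at 14.6 and 19.7 FPKM with LacZ and at 90.7 to 153 FPKM with the HDAC4 vectors, and Hif3a is the only gene whose 3 CFA values all lie above its 3 saline values.

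Within the LacZ saline group, where levels of different genes can be compared per length, Tsc22d3 stood highest at 60.2 FPKM. Ddit4 at 20.3, Sgk1 at 15.7, Cdkn1a at 14.6 and Nfkbia at 11.7 FPKM formed a middle band, followed by Per1 at 8.38 FPKM. Pdk4 at 3.91 and Zbtb16 at 2.37 FPKM were low, and Hif3a at 0.597 and Fkbp5 at 0.294 FPKM were lowest. The Fkbp5 value may be a partial estimate, since the locus used covers 67.7% of its annotated exon bases. Without an error, neighbours in this order cannot be said to differ.

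Fkbp5 encodes a co-chaperone of the receptor complex that lowers hormone binding and is itself induced by the receptor, a short feedback loop. Its FPKM was 0.294 after saline and 0.304 after CFA with LacZ, 0.234 and 0.442 with HDAC4 wt, and 0.404 and 0.238 with HDAC4 3SA. The log2 ratio of CFA over saline was thus 0.04 with LacZ, 0.70 with HDAC4 wt and -0.58 with HDAC4 3SA, in opposite directions for the HDAC4 vectors at levels under 1 FPKM. The saline and CFA values overlapped. The locus, chr17:28398732-28486146, covers 67.7% of the exon bases annotated for Fkbp5 (GENCODE M21), a protein-coding gene on the minus strand, and 2 further loci of the name just beyond its 3′ end were between 0.144 and 0.347 FPKM. Those 2 loci had log2 ratios of CFA over saline of 0.10 and -0.04 with LacZ and 0.11 and -0.44 with HDAC4 3SA. With HDAC4 wt they were at -0.62 and -0.67, against 0.70 at the locus used. Fkbp5 thus had no common direction over the 3 vectors.

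The next 4 genes act in transcription. Tsc22d3, or GILZ, a leucine zipper protein that carries part of the anti-inflammatory action of glucocorticoids, was at 60.2 and 61.9 FPKM (saline and CFA) with LacZ, 42.4 and 49.5 FPKM with HDAC4 wt, and 50.4 and 48.8 FPKM with HDAC4 3SA. Its log2 ratios of 0.04, 0.22 and -0.04 were all within the limit, and the lowest value of all was the HDAC4 wt saline group. Tsc22d3 was also the kept member called lower with an HDAC4 vector, at a log2 ratio over LacZ of -0.51 with HDAC4 wt in saline mice. The other 4 loci of this name at chrX:140539447-140600442 had means under 1 FPKM.

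Per1, a repressor of the circadian clock that both the clock and the glucocorticoid receptor induce, was at 8.38 and 10.8 FPKM with LacZ, 11.6 and 13.1 FPKM with HDAC4 wt, and 11.2 and 12.9 FPKM with HDAC4 3SA. All 3 CFA values were above their own saline value, with log2 ratios of 0.36, 0.17 and 0.20, but the LacZ CFA value lay under both HDAC4 saline values, so the groups overlapped. In LacZ mice 7.89% of the loci kept had a ratio as high. Its locus is chr11:69095214-69110119.

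Zbtb16, or PLZF, a zinc finger repressor strongly induced by glucocorticoids in many tissues, was at 2.37 and 2.26 FPKM with LacZ, 2.11 and 2.58 FPKM with HDAC4 wt, and 2.21 and 2.43 FPKM with HDAC4 3SA. The log2 ratios were -0.07, 0.28 and 0.13, and the LacZ saline value lay among the CFA values. With both loci of the name summed the HDAC4 wt ratio was 0.50, just under the limit. The locus is chr9:48651790-48835940.

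Hif3a, a member of the hypoxia-inducible factor family whose shorter products restrain the other members, had the largest ratios of the 10 genes with both HDAC4 vectors, though not with LacZ. It was at 0.597 and 0.750 FPKM with LacZ, 0.600 and 1.44 FPKM with HDAC4 wt, and 0.587 and 1.40 FPKM with HDAC4 3SA. The 3 saline values lay within 1.02-fold of each other, and all 3 CFA values were above them. The log2 ratios were 0.29, 1.14 and 1.12, a CFA over saline fold of 1.26, 2.41 and 2.38. A ratio as high was reached by 1.98% of the loci kept with HDAC4 wt and by 2.31% with HDAC4 3SA. The locus at chr7:17031152-17062403 also holds a short unreviewed transcript model on the other strand, and its mean of 0.896 FPKM is under the level set for the counts.

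Among loci kept, the 5 whose 3 log2 ratios were nearest to those of Hif3a, by Euclidean distance over the 3 vectors, were Chat, Utp18, Ahnak2, Slc10a4 and Slc18a3, at distances of 0.193 to 0.266. Chat, which encodes the enzyme that makes acetylcholine, had log2 ratios of 0.38, 1.14 and 1.29. Its FPKM was 4.57 and 5.97 with LacZ, 2.25 and 5.09 with HDAC4 wt, and 4.45 and 11.0 with HDAC4 3SA. Slc18a3, the vesicular acetylcholine transporter, had log2 ratios of 0.41, 1.34 and 1.25, and Slc10a4, a transporter of synaptic vesicles, 0.53, 1.21 and 1.05. Chat differed among the saline groups, where Hif3a did not by more than 1.02-fold. Whether cholinergic cells bear on the Hif3a values was not tested.

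The metabolic and ion-transport kinases differed from each other. Sgk1, a kinase that raises sodium transport and is a classical target of both corticosteroid receptors, was at 15.7 and 21.2 FPKM with LacZ, 28.6 and 47.6 FPKM with HDAC4 wt, and 32.1 and 45.9 FPKM with HDAC4 3SA. Its mean log2 ratio was the highest of the 8 kept genes, from single values of 0.43, 0.74 and 0.51, or folds of 1.35, 1.67 and 1.43. Ratios this high were found in 6.22%, 4.74% and 9.15% of the loci kept. The LacZ CFA value still lay under both HDAC4 saline values, so saline and CFA groups overlapped across vectors. Its locus is chr10:21882005-21999903, and the window printed above is that of 1 of its annotated starts.

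Pdk4, a kinase that switches off pyruvate dehydrogenase and spares glucose during fasting, was at 3.91 and 3.93 FPKM with LacZ, 4.20 and 4.94 FPKM with HDAC4 wt, and 4.12 and 4.59 FPKM with HDAC4 3SA. The log2 ratios were 0.01, 0.23 and 0.15. No group was more than 1.26-fold above another of the same treatment, which made Pdk4, at chr6:5483283-5496462, one of the flattest of the genes.

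**Figure D2:**
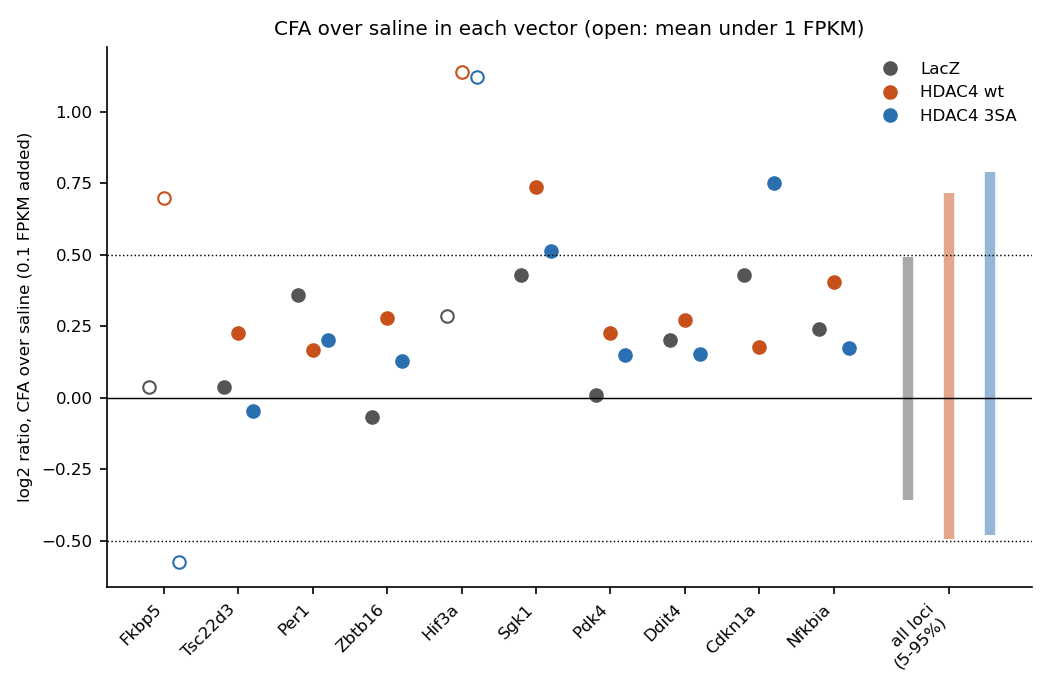
Log2 ratio of CFA over saline (vertical axis) for the 10 genes in the 3 vectors, open where the mean is under 1 FPKM, with dotted lines at the limit of 0.5 and bars for the range from the 5th to the 95th percentile of all loci kept. Hif3a with both HDAC4 vectors, at 1.14 and 1.12, lies above those ranges, Sgk1 with HDAC4 wt, at 0.74, lies at their upper edge, and Fkbp5 points in opposite directions.

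The genes that brake growth and division came next. Ddit4, or REDD1, an inhibitor of mTORC1 signalling, was at 20.3 and 23.4 FPKM with LacZ, 25.4 and 30.8 FPKM with HDAC4 wt, and 31.3 and 34.8 FPKM with HDAC4 3SA. The log2 ratios were 0.20, 0.27 and 0.15, all within the limit and all above 0. A second locus named Ddit4 has the same place, chr10:59949665-59952114, and was at 13.9 and 17.1 FPKM, 9.79 and 20.8 FPKM, and 13.4 and 15.6 FPKM. The tables give no strand, so which of these carries the gene, on the minus strand, cannot be told apart, and with both summed the HDAC4 wt ratio was 0.55.

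Cdkn1a, or p21, an inhibitor of cyclin-dependent kinases that p53 and glucocorticoids both induce, set the vectors apart more than the treatment. It was at 14.6 and 19.7 FPKM with LacZ, 117 and 132 FPKM with HDAC4 wt, and 90.7 and 153 FPKM with HDAC4 3SA. Both LacZ values were under all 4 values of the HDAC4 vectors. In saline mice the level with HDAC4 wt was 8.01-fold that with LacZ, and with HDAC4 3SA 6.23-fold, log2 ratios of 2.99 and 2.63 that 2.13% and 2.04% of the loci kept reached. In CFA mice the folds were 6.71 and 7.77. The log2 ratios of CFA over saline were 0.43, 0.18 and 0.75, so that the HDAC4 3SA value alone passed the limit. The locus is chr17:29090789-29100728.

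Nfkbia encodes IκBα, which holds NF-kB in the cytoplasm and is induced by NF-kB itself as well as by glucocorticoids. It was at 11.7 and 13.8 FPKM with LacZ, 21.7 and 28.8 FPKM with HDAC4 wt, and 21.8 and 24.6 FPKM with HDAC4 3SA. Here again both LacZ values were under all 4 HDAC4 values, by 1.85-fold and 1.86-fold in saline mice, while the log2 ratios of CFA over saline, 0.24, 0.41 and 0.17, stayed within the limit. The locus is chr12:55489330-55492686.

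Read by vector rather than by treatment, the 8 genes differed more. In saline mice 3 were called higher with HDAC4 wt than with LacZ (15.2% of loci kept), Cdkn1a, Nfkbia and Sgk1, and 1 lower (10.5%), Tsc22d3. In CFA mice the same 3 were called higher with HDAC4 wt (14.9%) and 0 lower (7.13%). With HDAC4 3SA, 4 were called higher in saline mice (12.7%) and 0 lower (9.22%), and in CFA mice 4 (16.5%) and 0 (11.6%), Ddit4 being the fourth in both. That call depends on the locus used, since the second locus named Ddit4 was at 13.9 FPKM with LacZ and 13.4 FPKM with HDAC4 3SA in saline mice, and at 17.1 and 15.6 FPKM in CFA mice. The median log2 ratio over LacZ was 0.39 and 0.36 with HDAC4 wt and 0.52 and 0.41 with HDAC4 3SA (saline and CFA), against 0.02 to 0.04 over all loci kept. Both comparisons use the same LacZ groups. Fkbp5, Zbtb16 and Pdk4, and Hif3a in saline mice, had log2 ratios over LacZ between -0.26 and 0.42 in all these comparisons. In CFA mice Hif3a was at 0.86 with HDAC4 wt and 0.82 with HDAC4 3SA, past the limit but under the level set for the counts.

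The receptor pathway around these genes differed little between saline and CFA. Of 11 genes of receptors and hormone handling 10 were matched, and their median log2 ratio of CFA over saline was -0.02, 0.02 and -0.04. None was called with LacZ or HDAC4 wt (4.86% and 9.08% of loci kept called higher). With HDAC4 3SA, 1 was called higher (9.44%), Hsp90aa1, the inducible Hsp90, at 107 FPKM (saline) and 289 FPKM (CFA). Hsp90aa1 was at 400 and 333 FPKM with LacZ and at 197 and 233 FPKM with HDAC4 wt, so the HDAC4 3SA saline value was the lowest of the 6 and its CFA value lay under both LacZ values. Nr3c1, the receptor itself, named for its role and after its values were seen, was at 19.2 to 23.9 FPKM in the 6 groups. Ncoa1, a coactivator of nuclear receptors, had the lowest mean ratio, with log2 values of 0.00, -0.09 and -0.20. A gene named below only to complete a count of at most 5 was chosen after its values were seen.

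The other glucocorticoid-induced genes gave a mixed record. Of 17, 16 were kept, with median log2 ratios of 0.16, 0.28 and 0.04. Of these, 3, 4 and 4 were called higher (4.86%, 9.08% and 9.44% of loci kept) and 0 lower (3.32%, 4.95% and 4.59%). The counts include Plin4 in each vector. Cebpd, a transcription factor of acute inflammation and fat cell differentiation, was called in all 3 vectors, at 2.04 and 3.84 FPKM, 6.38 and 10.3 FPKM, and 6.05 and 11.3 FPKM. Plin4, a lipid droplet coat protein, was also called in all 3, at 0.447 and 0.971 FPKM, 0.719 and 1.63 FPKM, and 0.801 and 1.57 FPKM. Its 3 saline values were under 1 FPKM and its mean was 1.02 FPKM, so it was kept only through the CFA groups and its calls are a description. The metallothioneins Mt1 and Mt2, which bind zinc and answer metals and inflammation as well, were called with both HDAC4 vectors, with log2 ratios of 0.52 and 0.66 for Mt1 and 0.55 and 0.68 for Mt2, and stood at 0.34 and 0.24 with LacZ. With LacZ the third call was Sult1a1, a sulfotransferase, at 0.75, against 0.11 with HDAC4 wt and -0.35 with HDAC4 3SA. Klf9 and Errfi1, also on the list and named after their values were seen, were between -0.12 and 0.12 in every vector.

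**Figure D3:**
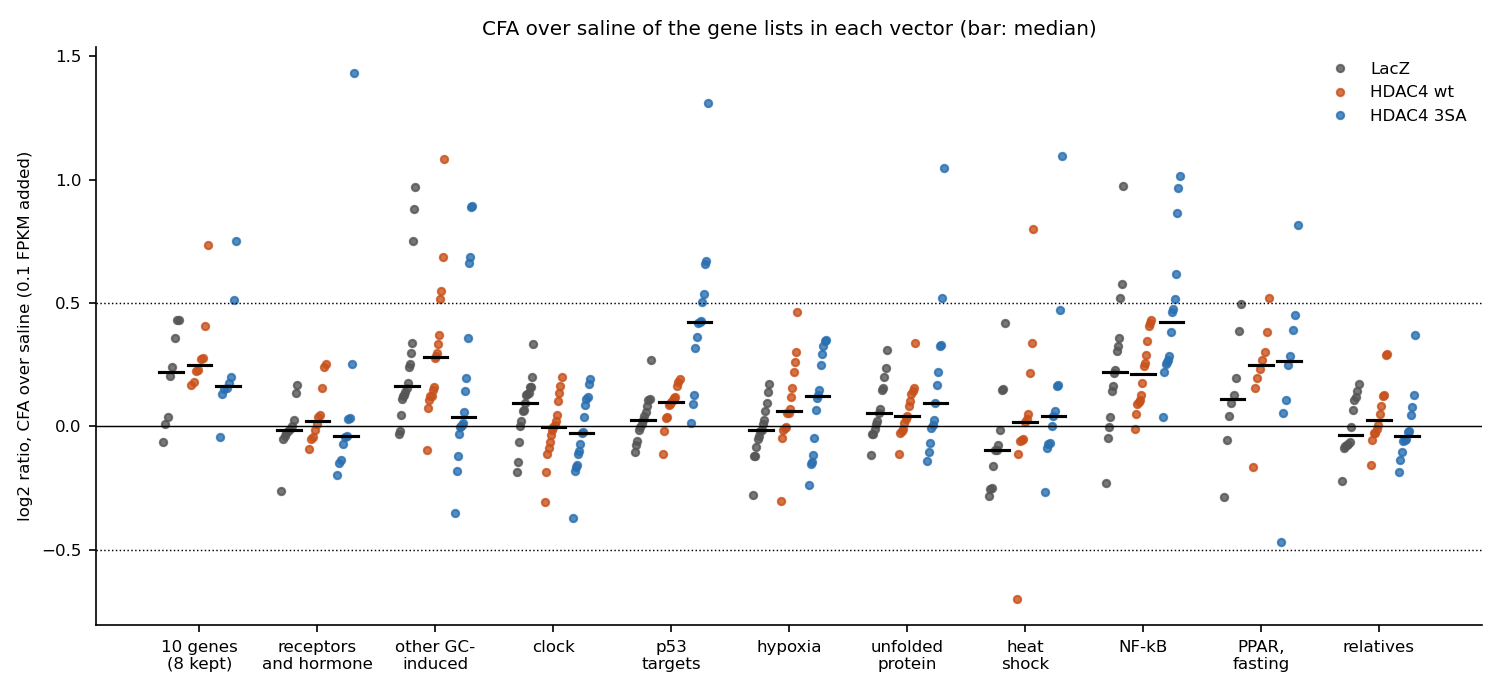
Log2 ratio of CFA over saline (vertical axis) of the kept genes of each list, 1 point per gene and vector, black bars for medians and dotted lines at the limit of 0.5. The medians of the 8 kept members, 0.22, 0.25 and 0.16, lie above 0 in each vector, those of receptor genes near 0, and those of p53 targets and NF-kB genes are highest with HDAC4 3SA, at 0.42 each.

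Clock genes gave no call. Over 15 genes the median log2 ratio was 0.10, 0.00 and -0.03, with 0 called in any vector (4.86%, 9.08% and 9.44% of loci kept called higher). Dbp, an output of the clock, had the highest mean ratio, 0.33, 0.16 and 0.17, near those of Per1, and Arntl, the activator that opposes the Per proteins, had the lowest, -0.15, -0.31 and -0.18. The hours at which saline and CFA mice were taken were not compared here.

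Targets of p53 were mostly higher with the HDAC4 vectors, as Cdkn1a was. Of 13, 0 were called after CFA with LacZ or HDAC4 wt, at medians of 0.02 and 0.10 (4.86% and 9.08% of loci kept called higher). With HDAC4 3SA, 5 were called higher (9.44%), at a median of 0.42. These were Gdf15 at 1.31, Eda2r at 0.67, Ccng1 at 0.66, Trp53inp1 at 0.54 and Btg2 at 0.50 on the log2 scale. Over LacZ in saline mice, 10 were called higher with HDAC4 wt (15.2% of loci kept) and 11 with HDAC4 3SA (12.7%). The medians were 1.31 and 1.27, and 0 were lower (10.5% and 9.22%). Gdf15 and Eda2r are among those called higher. With LacZ, Gdf15 was at 0.0681 and 0.0596 FPKM and Eda2r at 0.210 and 0.274 FPKM (saline and CFA). Both were kept only through the HDAC4 groups, so their calls over LacZ are a description. Ccng1, a cyclin induced by p53, was at 15.4 and 15.4 FPKM with LacZ, 85.1 and 95.2 FPKM with HDAC4 wt, and 67.9 and 107 FPKM with HDAC4 3SA. Plk2, a kinase, had the lowest mean ratio of CFA over saline and was at 13.1 to 17.7 FPKM in the 6 groups.

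NF-kB genes were likewise mostly higher with the HDAC4 vectors. Of 14, 3 were called higher after CFA with LacZ (4.86% of loci kept), 0 with HDAC4 wt (9.08%) and 5 with HDAC4 3SA (9.44%). The medians were 0.22, 0.21 and 0.42, and 0 were lower (3.32%, 4.95% and 4.59%). The genes called with LacZ were Bcl3 at 0.98, Icam1 at 0.58 and Birc3 at 0.52. Those with HDAC4 3SA were Ikbke at 1.01, Bcl3 at 0.97, Icam1 at 0.87, Nfkbiz at 0.62 and Ccl2 at 0.52. Icam1, an adhesion molecule of inflamed vessels and microglia, was at 1.24 and 1.90 FPKM with LacZ, 12.4 and 16.4 FPKM with HDAC4 wt, and 9.07 and 16.6 FPKM with HDAC4 3SA. Over LacZ in saline mice, 11 and 10 of the 14 were called higher with HDAC4 wt and HDAC4 3SA (15.2% and 12.7% of loci kept). The medians were 1.09 and 0.89. Bcl3, Ikbke and Ccl2 are among those called, at 0.534, 0.598 and 0.682 FPKM with LacZ in saline mice. They reached the level for the counts only through the HDAC4 groups, so their calls over LacZ are a description.

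Microglial markers were also higher with the HDAC4 vectors. In saline mice 4 of 5 were called higher over LacZ with either vector (15.2% and 12.7% of loci kept), at median log2 ratios of 1.42 and 1.19. After CFA all 5 were called higher (14.9% and 16.5%), at 1.57 and 1.71. Of CFA over saline, the median was 0.05 with LacZ, 0.18 with HDAC4 wt and 0.56 with HDAC4 3SA, with 3 of 5 called higher in the last (9.44%). P2ry12, the receptor lowered in activated microglia, was at 9.30 to 14.5 FPKM in all groups. Of 6 astrocyte markers 3 were above and 3 below LacZ in saline mice with either vector, at medians of 0.14 and 0.13, with Gfap, the astrocyte filament, at 389, 807 and 805 FPKM and Gja1, a gap junction protein, at 119, 102 and 103 FPKM. The 4 neuronal markers had median log2 ratios over LacZ of -0.30 and -0.41 with HDAC4 wt and -0.18 and -0.39 with HDAC4 3SA (saline and CFA). In saline mice they were split. Snap25 was at -0.63 and -0.51 (HDAC4 wt and HDAC4 3SA) and Tubb3 at -0.52 and -0.33. Rbfox3 was at -0.08 and 0.04 and Syt1 at 0.07 and -0.03. Snap25 was at 1227 FPKM with LacZ and at 795 and 861 FPKM with the HDAC4 vectors in saline mice. The part of these cells in the values of Cdkn1a, Nfkbia and Sgk1 was not tested.

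**Figure D4:**
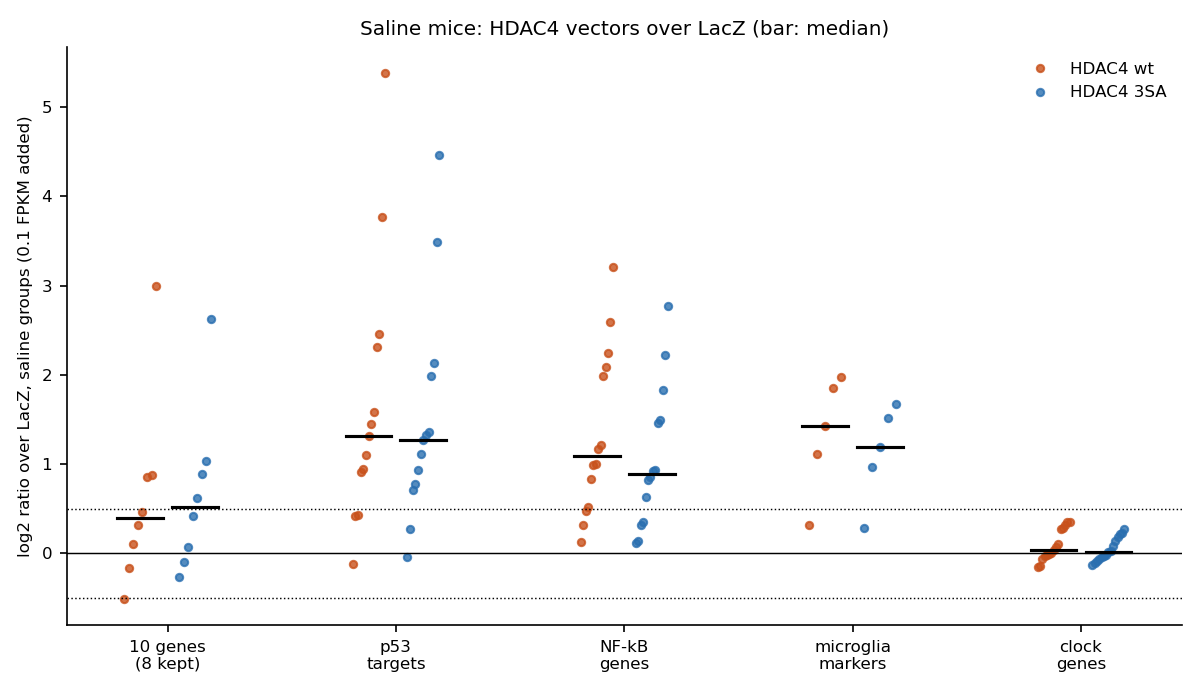
Log2 ratio of either HDAC4 vector over LacZ in saline mice (vertical axis) for the 8 kept members and 4 lists, 1 point per gene, with black bars for medians and dotted lines at the limit of 0.5. The highest point of the members is Cdkn1a at 2.99 and 2.63, p53 targets, NF-kB genes and microglial markers have medians of 0.89 to 1.42, and clock genes stay within the limit.

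General stress programmes are read against the 4.86%, 9.08% and 9.44% of loci kept that were called higher after CFA. Of 14 hypoxia genes 0 were called after CFA in any vector, at medians of -0.02, 0.06 and 0.12, with Egln3, a HIF hydroxylase, highest at -0.04, 0.46 and 0.35 and Ankrd37 lowest at 0.06, -0.30 and -0.12. Of 13 kept genes of the unfolded protein and integrated stress responses, 0, 0 and 2 were called, the last being Atf3 at 1.05 and Sdf2l1 at 0.52. Over LacZ in saline mice 4 of the 13 were called higher with either HDAC4 vector (15.2% and 12.7% of loci kept). Among them Atf3, a stress-induced transcription factor, had log2 ratios of 2.45 and 2.10. Asns, the enzyme that makes asparagine, had the lowest mean ratio of CFA over saline, at -0.03, -0.11 and -0.14. Of 11 heat shock genes, at medians of -0.09, 0.02 and 0.04, Hspb1 was called higher with both HDAC4 vectors. Hspb1 is a small chaperone induced in injured neurons and glia, and had log2 ratios of 0.42, 0.80 and 1.10. Hspa1b was called lower with HDAC4 wt, at -0.70, though reads of Hspa1b and its near-identical copy Hspa1a may have been split between them.

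Genes of fasting were mostly above 0 and the relatives of the 10 genes were near 0. Of 8 kept fasting and PPAR genes, 6, 7 and 7 had a log2 ratio of CFA over saline above 0, at medians of 0.11, 0.25 and 0.26. Called higher were 0, 1 and 1 (4.86%, 9.08% and 9.44% of loci kept). These were Ppard at 0.52 with HDAC4 wt and Plin2, a lipid droplet protein, at 0.82 with HDAC4 3SA. Of 12 kept relatives of the 10 genes, such as Sgk3 and Tsc22d1, 0 were called in any vector, at medians of -0.03, 0.03 and -0.04. Cdkn1c, from the family of Cdkn1a, was highest at 0.17, 0.12 and 0.08, and Pdk3, from that of Pdk4, was lowest at -0.08, -0.16 and -0.14.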

How the data were processed

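RNA was measured in bulk dorsal spinal cord (L3–5) of 18 mice in 6 groups of 3. The authors mapped strand-specific reads to GRCm38 with TopHat and Bowtie, and used Cufflinks and Cuffdiff for levels. They deposited 1 table per vector, in which the FPKM values are 1 estimate per group over its 3 mice. The columns that hold their own comparison (fold change, statistic, p and q) were not used. Read counts are not part of the tables used, so the depth behind each value is unknown.

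Loci were matched between tables by identifier, and 386 whose places do not overlap were left out. Log2 ratios were formed after adding 0.1 FPKM, and loci with a mean of at least 1 FPKM over the 6 values were kept (Python 3.11.15, pandas 2.3.3, numpy 2.4.6). Calls needed a log2 ratio past 0.5. No test was made on the pooled values, and the code was tested on simulated data. The 10 genes and the lists were chosen with earlier results of these data known. Of each list, genes past the limit the same way in at least 2 vectors were named, and otherwise those with the highest and lowest mean ratio. A few genes that this rule names are not reported here. Alternatives were another added value, minimum level, limit and centring, and the sum of all loci of a name.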

Additional observations from a re-analysis of the deposited data

Results flagged for a closer look

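Fkbp5 was singled out because its CFA value lay above the saline value with one HDAC4 vector and below it with the other, each past the limit. At the locus used, the log2 ratio of CFA over saline was 0.70 with HDAC4 wt and -0.58 with HDAC4 3SA. The further loci of the name were at -0.62 and -0.67 with HDAC4 wt, and at 0.11 and -0.44 with HDAC4 3SA. The higher CFA value with HDAC4 wt was thus seen at the locus used alone. The difference between the HDAC4 vectors was not tested, since there is 1 value per group. All 6 values of the locus used were under 1 FPKM.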

How the results depend on the processing

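No paired analysis was possible because the tables hold 1 pooled value per group and none per mouse. For the same reason no replicate could be left out, and no value has a known error. Of the counts, shares and medians recomputed under the alternatives, 60 stayed close to the reported value and 9 did not. With no minimum level, 3 members were called higher with HDAC4 wt, and 3 higher and 1 lower with HDAC4 3SA, as Fkbp5 and Hif3a entered; the share over all loci was not computed at this setting. At a minimum of 5 FPKM the share of loci called higher with LacZ was 2.99%. At a limit of 1 the shares called higher were 1.33%, 2.54% and 3.04% (LacZ, HDAC4 wt, HDAC4 3SA), and 0 members were called higher with HDAC4 wt and 0 with HDAC4 3SA, since the ratios of Sgk1 (0.74 and 0.51) and Cdkn1a (0.75) lay below it. With all loci of a name summed, 2 members were called higher with HDAC4 wt, Ddit4 being added at 0.55, and the share over all loci was not computed here either. No ratio of CFA over saline of the 8 kept members changed direction where it was recomputed. Fkbp5 and Hif3a entered only the alternative with no minimum level, so Fkbp5 was not read with its loci summed. The ratios over LacZ and the other lists were not recomputed.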

Other observations

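Second loci under the same names gave other values. One named Zbtb16, at the same place as the locus used, was at 1.26 and 1.23 FPKM (saline and CFA) with LacZ, 0.671 and 1.39 FPKM with HDAC4 wt, and 0.673 and 0.814 FPKM with HDAC4 3SA. One named Cdkn1a was listed at 0 in both LacZ groups and was between 0.604 and 1.79 FPKM with the HDAC4 vectors.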
